A study of Rattus norvegicus with 9 samples.

Results

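Molecular chaperones of the heat shock and DNAJ families were followed in the superior mesenteric artery (SMA) of the rat during ischemia. The members were the rows of the count table whose symbol begins with Hspa, Hspb, Dnaja, Dnajb or Dnajc followed by a number or with Hsp90, together with Hspd1, Hspe1 and Hsph1, and 72 of the 37203 genes in the table met this rule. They comprised 14 genes of the HSP70 and HSP110 family, 3 of the HSP90 family, 8 small heat shock proteins, the 2 subunits of the mitochondrial chaperonin, and 4 DNAJA, 13 DNAJB and 28 DNAJC genes. Levels are given as CPM, counts scaled to a common library size, with these sizes adjusted by the TMM method, and errors beside means are SD over 3 libraries.

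The SMA, the vessel that feeds most of the small intestine, was taken from Sprague-Dawley (SD) rats that were 8 weeks old in all groups. There were 3 libraries from normal rats, 3 after 1 h of ischemia and 3 after 4 h of ischemia. Ischemia was systemic, brought about by bleeding anaesthetized rats through a catheter in the femoral artery, and it was timed from the completion of the model. Whether normal rats were anaesthetized and catheterized is not given in the sources used here, so that blood loss and these procedures cannot be told apart.

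Chaperones bind unfolded or partly folded proteins and keep them from clumping. HSP70 proteins work in cycles of ATP binding that are started by DNAJ partners (also called HSP40) and reset by nucleotide exchange factors, HSP90 proteins complete the folding of kinases and steroid receptors, and small heat shock proteins hold unfolded clients without using ATP. Cells raise many of these transcripts through heat shock factor 1 when proteins misfold in the cytosol, and another set through the unfolded protein response when folding fails in the endoplasmic reticulum (ER).

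Of the 72 members, 66 passed the filter on low counts and were tested among 15482 genes. The remaining 6 were Dnajb7, Dnajb8 and Dnajc5g, which had 0 counts in every library, and Dnajc5b, Hspb3 and Hspb9, whose highest count in any library was 2. Library totals ran from 13114273 to 15504240 counts and the common biological coefficient of variation was 51.6%. All 7 smooth muscle markers and all 7 endothelial markers listed were detected in every library, with summed smooth muscle levels of 10095 to 44312 CPM in normal rats, 11643 to 42504 CPM at 1 h and 22008 to 63533 CPM at 4 h. A list of 23 neuron and Schwann cell genes differed widely between libraries of one group. Its mean log2 CPM, called the nerve score here, was 5.33, -0.055 and 4.20 for normal replicates 1 to 3. For the same replicates it was 8.17, 5.50 and 8.29 at 1 h, and 0.851, 1.42 and 8.19 at 4 h. In whole tissue a lower level can come from fewer cells of a type or from less RNA per cell, and these cannot be told apart.

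Sequences are shown for the members whose DNA near the transcription start holds one of 2 motifs of chaperone induction. The heat shock element was searched as 3 alternating inverted units, GAANNTTCNNGAA or TTCNNGAANNTTC, and the ER stress element as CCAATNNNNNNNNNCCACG or its reverse complement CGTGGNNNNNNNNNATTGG. The search covered both strands from 250 bases before to 50 bases after the start in RefSeq's GRCr8 annotation. All 72 members matched a RefSeq gene, 57 of them with a promoter entry. Members without an entry, among them Hspa1b, Hsp90aa1, Dnaja2 and Dnajb4, were not searched for either motif. The ER stress element was present in 3 of these 57 members (5.26%) and in 22 of all 33469 promoters (0.0657%), and no copy overlapped a heat shock element. Its bases are in capitals in the upstream sequences of Hspa5 (chr3:38452866-38453015, plus strand), Hsp90b1 (chr7:23012294-23012479, minus strand, 2 copies) and Dnajc3 (chr15:102432517-102432666, plus strand), written on the strand of the gene.
Hspa5: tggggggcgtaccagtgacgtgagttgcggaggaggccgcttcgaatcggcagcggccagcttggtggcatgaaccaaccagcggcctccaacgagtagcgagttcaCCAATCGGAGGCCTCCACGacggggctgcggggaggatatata
Hsp90b1: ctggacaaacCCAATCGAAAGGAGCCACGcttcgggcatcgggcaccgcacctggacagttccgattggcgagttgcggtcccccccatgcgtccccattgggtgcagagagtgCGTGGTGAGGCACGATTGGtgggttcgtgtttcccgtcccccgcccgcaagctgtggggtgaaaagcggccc
Dnajc3: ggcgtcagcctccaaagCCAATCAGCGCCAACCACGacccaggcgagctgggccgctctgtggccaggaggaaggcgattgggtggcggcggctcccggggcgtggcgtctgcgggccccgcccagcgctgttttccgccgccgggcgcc

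The heat shock element was present in 5 of the 57 members (8.77%), namely Dnaja1, Hspa8, Hspd1, Hspe1 and Hsph1, and in 267 of all 33469 promoters (0.798%). Hspa8 (chr8:50080291-50080513, plus strand) carried it at 2 places, from 213 to 201 and from 55 to 43 bases before its start. Hsph1 (chr12:10427218-10427367, plus strand) carried it from 36 to 24 bases before its start. Hspd1 and Hspe1, the subunits of the mitochondrial chaperonin, are transcribed away from each other, and their windows overlap and hold the same element, which is shown once, on the strand of Hspe1 (chr9:64084177-64084326, plus strand) as 2 overlapping copies. In Dnaja1 the element lay from 10 to 22 bases after the start (chr5:60638408-60638430, plus strand), and only the site is shown. Capitals mark the element. A match describes the letters of the window and not the binding of a factor, and the build behind the counts themselves is not given in the sources used here.
Hspa8: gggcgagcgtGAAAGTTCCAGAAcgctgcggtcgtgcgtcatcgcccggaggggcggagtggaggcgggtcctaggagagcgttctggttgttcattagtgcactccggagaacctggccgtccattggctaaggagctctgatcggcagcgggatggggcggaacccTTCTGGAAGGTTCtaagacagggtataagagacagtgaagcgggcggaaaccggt
Hsph1: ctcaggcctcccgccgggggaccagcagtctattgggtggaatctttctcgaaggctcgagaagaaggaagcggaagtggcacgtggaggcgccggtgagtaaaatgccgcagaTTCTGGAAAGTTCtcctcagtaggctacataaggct
Hspe1: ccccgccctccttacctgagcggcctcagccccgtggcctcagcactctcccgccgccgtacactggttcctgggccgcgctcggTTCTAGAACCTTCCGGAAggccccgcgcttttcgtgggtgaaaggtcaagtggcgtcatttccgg
Dnaja1: gggcgGAACTTTCCAGAAcgctc

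To ask how the chaperones behaved in the early stage, the libraries at 1 h were compared with normal. No member was called at an adjusted p under 0.05 and a fold change over 1.5 (edgeR's quasi-likelihood test with Benjamini-Hochberg adjustment over all 15482 genes), where 0.0581% of all genes were called. At an unadjusted p under 0.05, 13 of the 66 tested members were higher (7.98% of all genes) and 2 were lower (8.67% of all genes). All 3 libraries at 1 h lay above all 3 normal libraries for 14 members (12.8% of all genes) and below them for 3 members (13.5% of all genes). The median log2 fold change was 0.32 over the tested members and -0.0076 over all genes, with 45 members above 0 (68.2%, against 49.4% of all genes) and 21 below. Single libraries weighed on the count of 13 higher members (19.7%), and the share of all genes changed in these fits as well. Without normal replicate 2 there were 3 (4.55%, against 3.87% of all genes), and without normal replicate 1 there were 6 (9.09%, against 9.06%), so that both were near the background. Without replicate 1 at 1 h there were 5 (7.58%, against 4.81%) and without replicate 3 at 1 h 4 (6.06%, against 3.38%). There were 5 (7.58%, against 4.5%) when the nerve score was added as a covariate. DESeq2 called 3 of the 66 members at 1 h (4.55%), Dnaja1, Hspa5 and Hspa9, where it called 4.53% of all genes, so that the count was at the background share.

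The late stage, 4 h against normal, again gave 0 called members with edgeR, where 0.0904% of all genes were called and the lowest adjusted p of a member was 0.0712. At an unadjusted p under 0.05, 10 members were higher (5.07% of all genes) and 1 was lower (7.35% of all genes). Scaled by library size alone, this split was 5 higher and 4 lower, against 2.41% and 10.6% of all genes. The median log2 fold change was then 0.19 over the members and -0.149 over all genes. Groups did not overlap for 12 members that were higher (7.93% of all genes) and 2 that were lower (10.8% of all genes). The median log2 fold change was 0.36, against 0.0272 over all genes, and 55 of the 66 members lay above 0 (83.3%, against 52.3% of all genes). The count above 0 was 46 (69.7%, against 49% of all genes) without replicate 1 at 4 h. It was 45 (68.2%) without replicate 3 at 4 h and with library size alone, against 42.8% and 38.5% of all genes. Without normal replicate 2 the count of members higher at an unadjusted p under 0.05 was 5 (7.58%, against 3.86% of all genes). DESeq2 called 5 members (7.58%, against 3.94% of all genes), Dnaja1, Hspa5, Hspa9, Hsp90b1 and Hspa12b, the last of them lower. The edgeR fit with the nerve score added as a covariate called 2 (3.03%, against 0.807% of all genes), Dnaja1 and Hspa5.

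Between 4 h and 1 h, 0 members and 0% of all genes were called by edgeR, and DESeq2 also called 0. At an unadjusted p under 0.05, 1 member was higher and 0 were lower with edgeR, where 1.33% and 1.25% of all genes were higher and lower. Without replicate 3 at 4 h these counts were 3 (4.55%) and 9 (13.6%), near the 6.54% and 14.1% of all genes in that fit. Groups did not overlap for 4 members that were higher at 4 h (Dnajc21, Dnajc3, Dnajc30 and Dnajc4, against 3.2% of all genes) and for 2 that were lower (Hspa12b and Hspb8, against 3.04% of all genes), all 6 named after their values were seen. The comparisons of 1 h and of 4 h with normal share the same normal libraries, so their values are given side by side for each member and their likeness is not counted as a result.

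**Figure D1:**
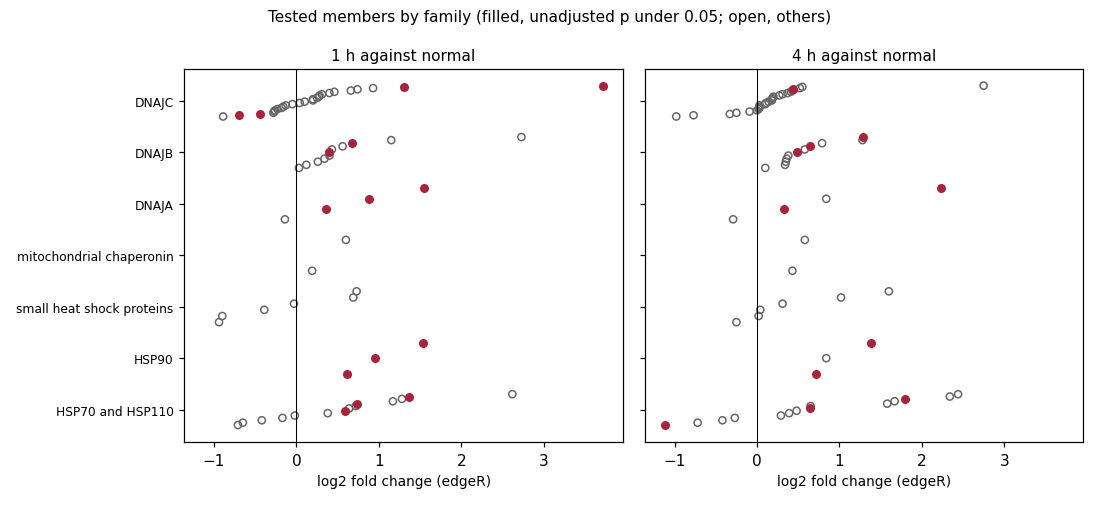
Log2 fold changes from edgeR of the 66 tested members, by family, at 1 h (left) and 4 h (right) against normal; each point is a gene, the height within a family is only its rank, and filled points had an unadjusted p under 0.05. All 11 tested DNAJB genes lie right of 0 in both panels, and the small heat shock proteins have no filled point.

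Chaperones of the ER lumen and membrane were led by Hspa5, which encodes BiP, the HSP70 protein of the ER and a brake on the sensors of the unfolded protein response. Hspa5 was at 129, 145 and 238 CPM in normal replicates 1 to 3, at 498, 438 and 389 CPM at 1 h and at 714, 494 and 566 CPM at 4 h. Every ischemic library therefore lay above every normal one, and the lowest library at 4 h lay just below the highest at 1 h. The mean was higher than normal, 170.4 ± 58.7 CPM, at both stages, with 442 ± 54.7 and 591 ± 112 CPM (SD, n = 3), with log2 fold changes of 1.37 (SE 0.29, adjusted p = 0.168) at 1 h and 1.79 (SE 0.29, adjusted p = 0.0712) at 4 h. These values kept an unadjusted p under 0.05 in all 9 fits that left out one library, at both stages. They ranged from 1.21 to 1.69 at 1 h and from 1.61 to 2.11 at 4 h. The adjusted p in these fits reached 0.559 at 1 h and 0.252 at 4 h. Some of the 9 fits left out a library outside the comparison, and the 1 h value was 1.37 without any one 4 h library. With the nerve score added as a covariate the log2 fold changes of Hspa5 were 1.38 and 1.79.

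Hsp90b1, which encodes the HSP90 protein of the ER (GRP94) and whose promoter carries the ER stress element in 2 copies, was at 277, 216 and 337 CPM in the normal libraries. Its level was 457, 422 and 388 CPM at 1 h and 470.4, 424 and 467 CPM at 4 h, so that neither ischemic group overlapped normal. The log2 fold change was 0.61 (SE 0.22, adjusted p = 0.266) at 1 h and 0.71 (SE 0.22, adjusted p = 0.238) at 4 h. Dnajb11, a lumenal DNAJ partner of BiP, was at 25.98, 27.9 and 36.3 CPM in normal rats, at 41.5, 35.9 and 36.4 CPM at 1 h and at 46.5, 38.8 and 41.4 CPM at 4 h. Its highest normal library lay within the 1 h group and below the 4 h group, and the change was 0.49 (SE 0.18, adjusted p = 0.317) at 4 h.

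Dnajc3 (p58IPK), a lumenal cochaperone of BiP and the third member with an ER stress element, was at 20.5, 15.0 and 17.7 CPM in normal rats, at 21.8, 22.3 and 17.0 CPM at 1 h and at 24.8, 23.8 and 23.9 CPM at 4 h. The 3 libraries at 4 h were close together and above the other 6, with a log2 difference from normal of 0.44 (SE 0.19, adjusted p = 0.393). Dnajb14, a DNAJ protein of the ER membrane, was at 8.51, 6.57 and 9.45 CPM in normal rats, at 13.7, 12.03 and 13.6 CPM at 1 h and at 14.1, 9.04 and 15.1 CPM at 4 h. It was higher by 0.68 (SE 0.26, adjusted p = 0.279) at 1 h without overlap and by 0.64 (SE 0.26, adjusted p = 0.360) at 4 h, where replicate 2 lay within the normal range. Dnajc3 at 4 h and Dnajb14 at 4 h fall outside the rule for naming and were picked with their values in view.

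Dnajb9 (ERdj4), an inducible ER cochaperone, was at 33.8, 24.7 and 28.5 CPM in normal rats, at 36.9, 37.7 and 40.5 CPM at 1 h and at 25.1, 42.2 and 43.4 CPM at 4 h. It did not overlap normal at 1 h, while replicate 1 at 4 h lay among the normal libraries, and it had no unadjusted p under 0.05. The 10 listed members of the ER were these 6 and Hspa13, Dnajb12, Dnajc1 and Dnajc10. This list was made with earlier results known and need not be complete. It left out Dnajc14, which was below normal without overlap at both stages and had an unadjusted p under 0.05 at 1 h. The counts that follow do not include Dnajc14, and their lack of lower members holds for the list only. Of the 10, 3 were higher at an unadjusted p under 0.05 at 1 h (7.98% of all genes) and 5 at 4 h (5.07% of all genes), and 0 were lower. At 1 h, 9 of the 10 had a fold change above 0 (49.4% of all genes), and at 4 h all 10 did (52.3% of all genes). Their median log2 fold changes were 0.37 and 0.40.

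**Figure D2:**
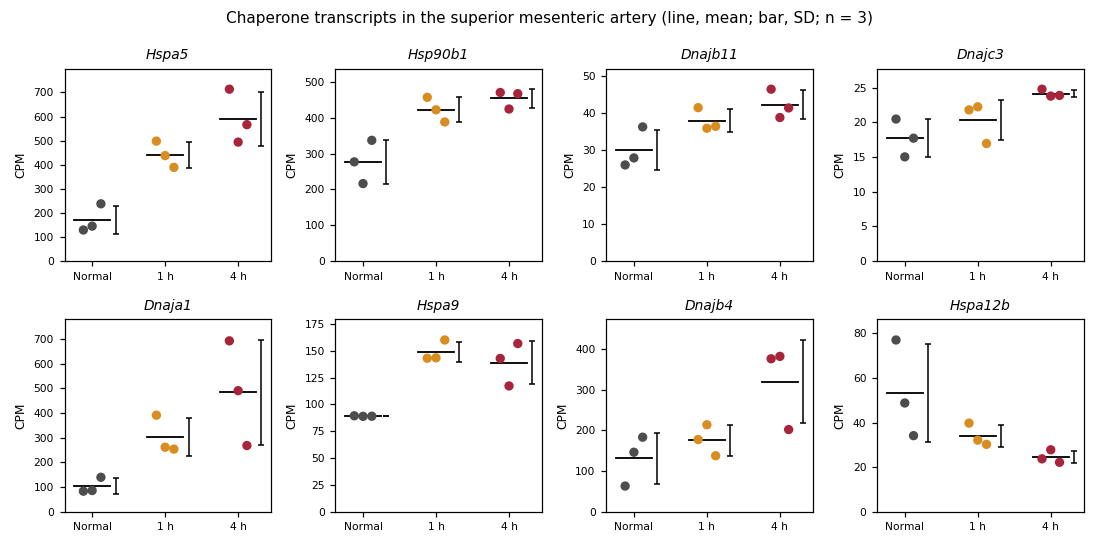
Levels in CPM (vertical axis, linear, with 0 shown) of 8 members in normal arteries and after 1 h and 4 h of ischemia; points are libraries, lines are means and bars beside them are SD (n = 3). Hspa5, Hsp90b1, Dnaja1 and Hspa9 have no ischemic library within the normal range, while Hspa12b is lower at 4 h.

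In the cytosol the DNAJ partners of HSP70 were led by Dnaja1, which assists HSP70 in refolding and carries the heat shock element shown above. Dnaja1 was at 83.5, 86.2 and 139.8 CPM in normal rats, at 391, 262 and 254 CPM at 1 h and at 692, 490.5 and 268 CPM at 4 h. All 6 ischemic libraries lay above the normal ones, with a wide spread at 4 h. The log2 fold change was 1.55 (SE 0.39, adjusted p = 0.210) at 1 h and 2.23 (SE 0.40, adjusted p = 0.0784) at 4 h, a fold of 4.69. Leaving out one library moved the value at 4 h between 1.84 (without replicate 1 at 4 h) and 2.52 (without replicate 3 at 4 h), and the covariate fit gave 2.16. Dnaja1 has processed copies in the genome, and how shared reads were counted is not given in the sources used here.

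Dnajb4, a DNAJB protein that works with cytosolic HSP70, was at 63.3, 146 and 183 CPM in normal rats, at 178, 214 and 138 CPM at 1 h and at 376, 382 and 202 CPM at 4 h. The groups overlapped at 1 h but not at 4 h, where it was higher by 1.29 (SE 0.42, adjusted p = 0.268). Dnaja2, a close relative of Dnaja1, was at 69.5, 71.9 and 82.5 CPM in normal rats, at 92.9, 100.5 and 94.7 CPM at 1 h and at 96.5, 89.2 and 95.4 CPM at 4 h. The difference was small and without overlap at both stages, at 0.36 (SE 0.14, adjusted p = 0.280) and 0.33 (SE 0.14, adjusted p = 0.388). Dnajb6, which holds back the aggregation of polyglutamine proteins, did not overlap normal at either stage and was higher by 0.40 (SE 0.15, adjusted p = 0.281) at 1 h. Dnaja4 was higher by 0.88 (SE 0.37, adjusted p = 0.294) at 1 h, with replicate 2 at 34.0 CPM inside the normal range of 21.5 to 43.8 CPM. Dnaja2, Dnajb6 and Dnaja4 were chosen after their values were seen. Of the 9 fits that left out 1 library, an unadjusted p under 0.05 remained for Dnaja2 in 3 at 1 h and 2 at 4 h. At 1 h it remained for Dnajb6 in 4 and for Dnaja4 in 3. With the nerve score as a covariate none of these genes had such a p at 1 h.

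Dnajb1 (HSP40), the classical heat-inducible DNAJ protein, was at 40.9, 38.2 and 76.7 CPM in normal rats, at 53.1, 83.1 and 49.95 CPM at 1 h and at 83.1, 66.6 and 52.3 CPM at 4 h. Dnajb5 was at 20.9, 103 and 112 CPM in normal rats, at 73.5, 199 and 76.2 CPM at 1 h and at 195.5, 133 and 81.0 CPM at 4 h. Both overlapped between groups at each stage and had no unadjusted p under 0.05. All 11 tested DNAJB genes had fold changes above 0 at both stages, with medians of 0.40 and 0.49, where 49.4% and 52.3% of all genes lay above 0, and 2 and 3 of the 11 were higher at an unadjusted p under 0.05, against 7.98% and 5.07% of all genes.

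The inducible HSP70 genes were set apart by their spread. Hspa1b was at 4.59, 12.99 and 65.3 CPM in normal rats, at 94.9, 34.8 and 7.13 CPM at 1 h and at 361, 40.0 and 18.7 CPM at 4 h. The normal libraries differed widely among themselves, and replicate 1 at 4 h alone lay far above all others. Hspa1a, its neighbour with a nearly identical coding sequence, had only 1, 4 and 21 counts in normal rats, 8, 24 and 5 counts at 1 h and 119, 1 and 6 counts at 4 h, again highest in replicate 1 at 4 h. Reads shared by these genes could have been divided between them in either way, so their separate values are uncertain.

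Hsph1 (HSP110), a nucleotide exchange factor of HSP70 with a heat shock element, was at 30.4, 35.5 and 104 CPM in normal rats, at 213, 69.0 and 100.4 CPM at 1 h and at 361, 70.8 and 111 CPM at 4 h. Normal replicate 3 lay above 2 of the libraries at 1 h and above 1 of those at 4 h. Hspa8, the constitutive cytosolic HSP70 (HSC70), which has many processed copies and 2 heat shock elements, was at 8.73, 8.98 and 74.4 CPM in normal rats, at 32.4, 18.9 and 30.2 CPM at 1 h and at 28.4, 15.0 and 25.4 CPM at 4 h. Its highest library was therefore a normal one, and its values are uncertain where copies share reads. Neither Hsph1, Hspa8, Hspa1a nor Hspa1b had an unadjusted p under 0.05 in any comparison.

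Hspa4, another member of the HSP110 branch, was higher at 1 h by 0.59 (SE 0.25, adjusted p = 0.294), at 108, 121 and 154 CPM in normal rats and 229.5, 148 and 197 CPM at 1 h, and was chosen after its values were seen. Hspa12b, a distant HSP70 relative known from endothelial cells, went the other way. It was at 77.0, 48.8 and 34.1 CPM in normal rats, at 39.7, 32.1 and 30.2 CPM at 1 h and at 23.7, 27.8 and 22.2 CPM at 4 h, so that the 4 h group lay below all other libraries. The log2 fold change at 4 h was -1.12 (SE 0.29, adjusted p = 0.184), and it was -0.76 without normal replicate 1, which moved it most. The summed level of the 7 endothelial markers was 1384, 876 and 566 CPM in normal rats, 558, 889 and 692 CPM at 1 h and 455, 756 and 805 CPM at 4 h, and its part in the Hspa12b values was not tested.

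The cytosolic HSP90 genes were both higher at 1 h. Hsp90aa1, the inducible form, was at 8.68, 9.71 and 22.5 CPM in normal rats, at 52.5, 23.1 and 42.8 CPM at 1 h and at 42.7, 16.8 and 46.9 CPM at 4 h. The 1 h group did not overlap normal, and replicate 2 was the lowest of each ischemic group. The log2 fold changes were 1.53 (SE 0.53, adjusted p = 0.260) at 1 h and 1.38 (SE 0.52, adjusted p = 0.337) at 4 h. Hsp90ab1, the constitutive form, was at 761, 686 and 1027 CPM in normal rats, at 2085, 957 and 1724 CPM at 1 h and at 1699, 962 and 1754 CPM at 4 h. Replicate 2 of both ischemic groups lay below the highest normal library, and the value was 0.95 (SE 0.39, adjusted p = 0.290) at 1 h. Hsp90aa1 and Hsp90ab1 were both highest in the 3 libraries with the highest nerve score. With that score as a covariate their log2 fold changes at 1 h were 1.06 and 0.60, and neither had an unadjusted p under 0.05. The value of Hsp90aa1 at 4 h was 1.33 in that fit. At 1 h an unadjusted p under 0.05 remained in 5 (Hsp90aa1) and 4 (Hsp90ab1) of the 9 fits that left out 1 library. Both genes have copies in the genome that can share reads.

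In the mitochondrion the clearest member was Hspa9 (mortalin), the HSP70 protein that draws precursor proteins into the matrix. It was at 89.4, 88.9 and 89.0 CPM in the 3 normal libraries, at 143.0, 143 and 160.0 CPM at 1 h and at 143, 117 and 157 CPM at 4 h. The normal libraries were almost equal, and all 6 ischemic libraries lay above them. The log2 fold changes were 0.74 (SE 0.16, adjusted p = 0.178) at 1 h and 0.64 (SE 0.16, adjusted p = 0.172) at 4 h. The unadjusted p was under 0.05 in all 9 fits that left out one library at each stage. The adjusted p in these fits reached 0.591 at 1 h and 0.408 at 4 h.

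Hspd1 (HSP60), the large subunit of the chaperonin, was at 95.0, 88.7 and 124.5 CPM in normal rats, at 183, 107 and 179 CPM at 1 h and at 195, 111 and 154 CPM at 4 h. Hspe1 (HSP10), its lid, was at 25.7, 24.5 and 44.1 CPM in normal rats, at 45.7, 28.9 and 33.1 CPM at 1 h and at 55.8, 34.7 and 36.2 CPM at 4 h. Both were lowest in replicate 2 among the ischemic libraries of each stage, and neither had an unadjusted p under 0.05. The table also lists 16 Hspd1 pseudogenes, which may share reads with Hspd1. Of the 8 listed mitochondrial members, only Hspa9 was higher at an unadjusted p under 0.05 at either stage, against 7.98% and 5.07% of all genes. At 1 h, 5 of the 8 had a fold change above 0 and 3 below, and at 4 h 6 and 2. At 1 h, 1 of them lay above normal without overlap and 1 below, against 12.8% and 13.5% of all genes.

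Small heat shock proteins gave no member at an unadjusted p under 0.05. Hspb1 (HSP27), abundant in smooth muscle, was at 168, 364 and 547.5 CPM in normal rats, at 741, 775 and 272 CPM at 1 h and at 2323, 654 and 300.2 CPM at 4 h. Hspb6 (HSP20), which relaxes smooth muscle when phosphorylated, was at 63.2, 237 and 235.0 CPM in normal rats, at 102, 145 and 41.2 CPM at 1 h and at 262, 197 and 82.3 CPM at 4 h. Hspb7 was at 30.2, 173 and 180.4 CPM in normal rats, at 101, 235.5 and 39.4 CPM at 1 h and at 426, 255 and 96.9 CPM at 4 h. These 3 genes were highest in replicate 1 at 4 h and low in normal replicate 1 and in replicate 3 at 1 h.

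The summed smooth muscle level ran alongside them. It was at 10095, 43625 and 44312 CPM in normal rats, at 23264, 42504 and 11643 CPM at 1 h and at 63533, 44930 and 22008 CPM at 4 h, with its highest value in replicate 1 at 4 h and its lowest in normal replicate 1. Its part in the small heat shock protein values was not tested. Hspb8, which works with Bag3 in the clearance of damaged filaments, was at 30.01, 71.7 and 105.2 CPM in normal rats, at 119.5, 108 and 105.5 CPM at 1 h and at 92.0, 60.6 and 104 CPM at 4 h. The 1 h libraries lay just above the normal ones and the 4 h libraries below those at 1 h.

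**Figure D3:**
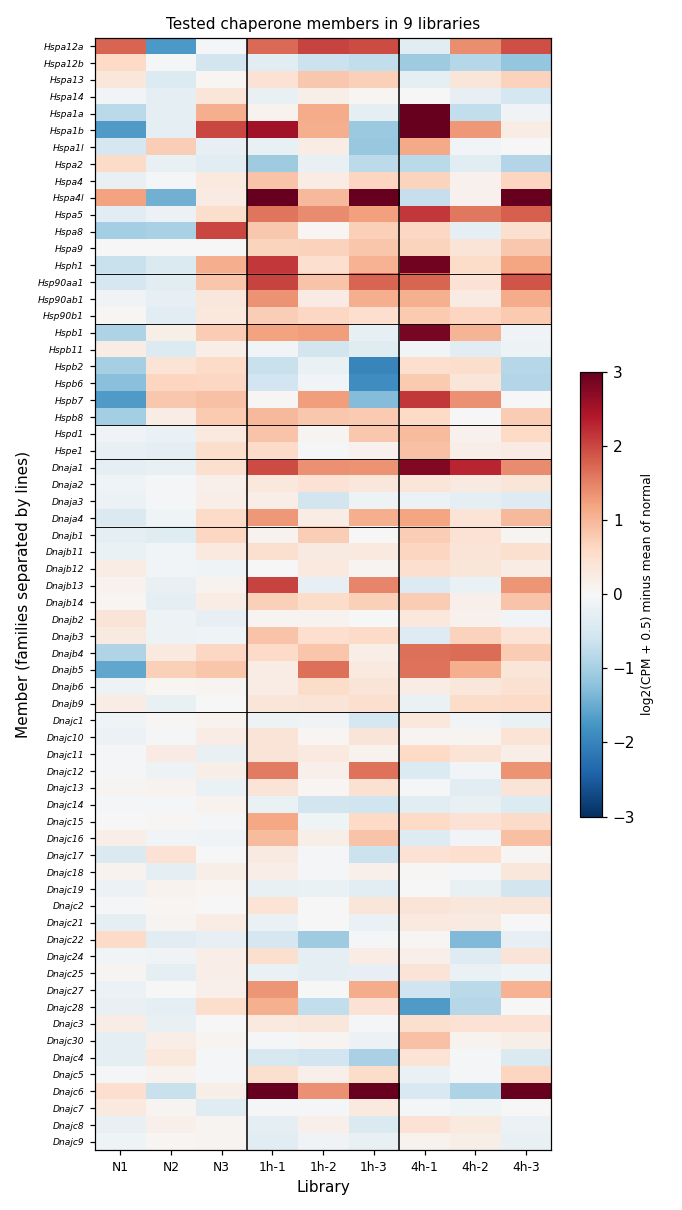
The 66 tested members (rows, by family) in the 9 libraries (columns), coloured by log2(CPM + 0.5) minus the mean of the 3 normal libraries, with colours cut at -3 and 3. Hspa5 and Dnaja1 are above the normal mean in all 6 ischemic libraries, and Dnajc6 and Hspa4l stand out in replicates 1 and 3 at 1 h and replicate 3 at 4 h.

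The DNAJC genes, a mixed group named for the J domain they have in common, had small median log2 fold changes of 0.15 at 1 h and 0.16 at 4 h. Of the 26 tested, 15 lay above 0 at 1 h and 21 at 4 h, where 49.4% and 52.3% of all genes did. Dnajc14 was at 36.2, 36.2 and 40.0 CPM in normal rats, at 32.6, 25.5 and 24.6 CPM at 1 h and at 29.7, 31.8 and 27.9 CPM at 4 h. It was below normal without overlap at both stages, with a log2 value of -0.44 at 1 h (SE 0.17, adjusted p = 0.279). Dnajc4 was at 14.3, 21.7 and 17.1 CPM in normal rats, at 12.4, 11.6 and 8.66 CPM at 1 h and at 23.5, 17.0 and 12.8 CPM at 4 h. It was lower at 1 h (-0.70, SE 0.28, adjusted p = 0.288) and higher at 4 h than at 1 h (0.71, SE 0.28, adjusted p = 0.856), while its mean at 4 h was near that of normal. With the nerve score added as a covariate these 2 values of Dnajc4 were -0.29 and 0.31.

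Dnajc6 (auxilin), which uncoats clathrin vesicles in neurons, was at 8.23, 3.36 and 6.50 CPM in normal rats, at 115, 15.4 and 109 CPM at 1 h and at 3.97, 2.74 and 115 CPM at 4 h. Its 3 high libraries were those with the highest nerve score, replicates 1 and 3 at 1 h and replicate 3 at 4 h. The log2 fold change at 1 h was 3.72 (SE 1.46, adjusted p = 0.285), the largest of any member, and 0.82 (SE 0.78) when that score was a covariate. Dnajc12, a cochaperone of the enzymes that make monoamines, was higher at 1 h by 1.30 (SE 0.56, adjusted p = 0.296), at 25.1, 9.02 and 26.2 CPM against 7.89, 7.30 and 9.31 CPM in normal rats, and by 0.33 (SE 0.45) with the covariate. Both genes were chosen after their values were seen.

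The same 3 libraries were the highest ones for 12 of the 66 members (18.2%) and for 18% of all genes tested. The 12 were Hsp90aa1, Hsp90ab1, Hspa4l, Dnajb13 and 8 DNAJC genes, among them Dnajc5, a cysteine string protein of synaptic vesicles. Hspa4l, an HSP110 relative, was at 16.7, 2.26 and 8.35 CPM in normal rats, at 79.5, 14.1 and 74.8 CPM at 1 h and at 4.13, 7.71 and 69.9 CPM at 4 h. It had no unadjusted p under 0.05 and was chosen after its values were seen. The 23 neuron and Schwann cell genes summed to 89.3 to 2579 CPM in normal rats, 1985 to 11824 CPM at 1 h and 219 to 11565 CPM at 4 h, with 5 of them at 0 in some normal library and 1 at 4 h. Their part in the chaperone values was not tested beyond the covariate fit.

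Another 23 of the 66 members (34.8%) had their highest level in replicate 1 at 4 h, against 16.6% of all genes tested. They included Hspa1a, Hspa1b, Hsph1, Hspb1, Dnaja1, Hspa5, Hspd1 and Hspe1, and also Hspb6 and Hspb7. That library had a low nerve score (0.851) and the highest summed smooth muscle level. Without it, log2 fold changes at 4 h were 1.61 for Hspa5 and 1.84 for Dnaja1. Replicate 1 at 1 h was the highest library for 14 members (21.2%), against 13.1% of all genes.

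**Figure D4:**
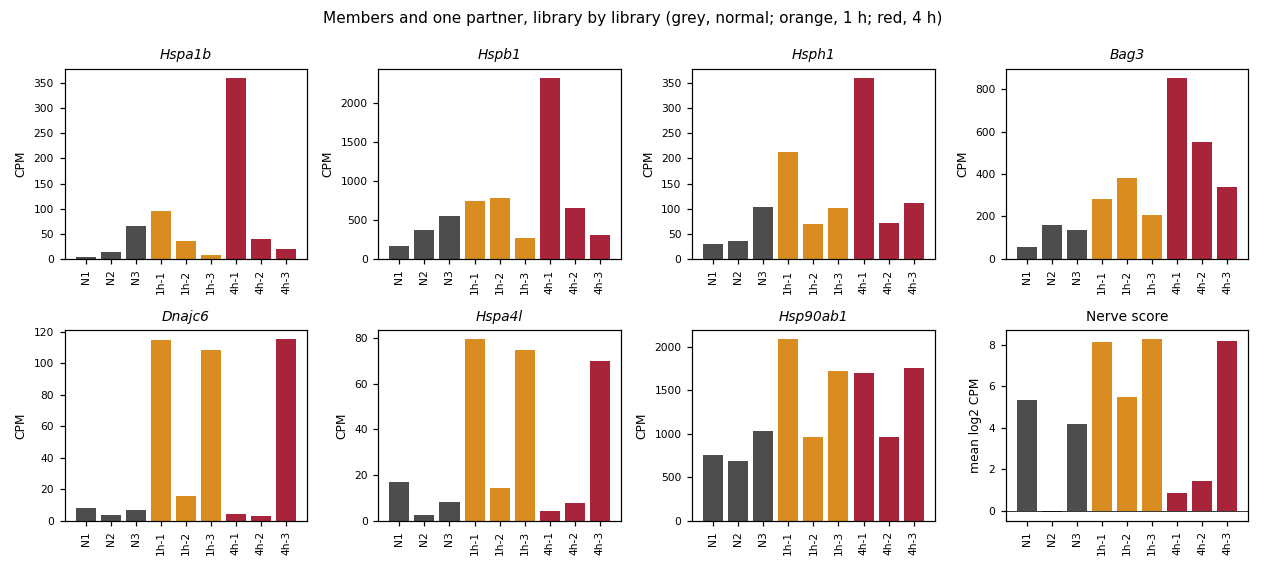
Levels in CPM (vertical axis from 0) of 6 members and the cochaperone gene Bag3 in each of the 9 libraries (N, normal; 1h and 4h, hours of ischemia; numbers are replicates), with the nerve score (mean log2 CPM of 23 neuron and Schwann cell genes) at the lower right. Hspa1b, Hspb1 and Hsph1 peak in replicate 1 at 4 h, whereas Dnajc6 and Hspa4l are high where the nerve score is above 8.

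Cochaperones and regulators outside the rule were taken from a list of 43 genes, of which 41 were tested. They were 4 heat shock factor genes, 13 cochaperones of HSP70, 16 of HSP90 and the 8 subunits of the TRiC chaperonin, which folds actin and tubulin. None was called in the main edgeR fit (0.0581% of all genes at 1 h and 0.0904% at 4 h). At an unadjusted p under 0.05, 4 were higher at 1 h (7.98% of all genes) and 8 at 4 h (5.07% of all genes). At that threshold 0 were lower, against 8.67% and 7.35% of all genes. Hsf1, Hsf2, Hsf4 and Hsbp1, the factors and their binding protein, were not among the higher ones.

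Bag3, the nucleotide exchange factor that pairs HSP70 with Hspb8, was at 56.7, 158 and 135 CPM in normal rats, at 280, 380.2 and 206 CPM at 1 h and at 854, 550.2 and 339 CPM at 4 h. Neither ischemic group overlapped normal, and the log2 fold change was 1.31 (SE 0.47, adjusted p = 0.270) at 1 h and 2.32 (SE 0.49, adjusted p = 0.116) at 4 h. Fkbp5, a cochaperone of HSP90 in steroid receptor complexes and a known glucocorticoid target, was at 32.6, 89.2 and 31.2 CPM in normal rats, at 118, 400.3 and 294 CPM at 1 h and at 267, 203 and 177 CPM at 4 h. It too had no overlap with normal, at 2.41 (SE 0.56, adjusted p = 0.188) and 2.08 (SE 0.55, adjusted p = 0.187). The TRiC subunits Cct6a and Cct8 were higher at 1 h by 0.58 (SE 0.24, adjusted p = 0.288) and 0.55 (SE 0.21, adjusted p = 0.285). At 4 h their values were 0.62 (SE 0.24, adjusted p = 0.334) and 0.51 (SE 0.21, adjusted p = 0.390), and Cct3 was higher by 0.67 (SE 0.23, adjusted p = 0.293). Partners of HSP70 and HSP90 completed the 8 at 4 h. They were St13 (0.52, SE 0.21, adjusted p = 0.360), Ptges3 (0.38, SE 0.16, adjusted p = 0.378) and Ppp5c (0.47, SE 0.20, adjusted p = 0.389). All 8 TRiC genes had fold changes above 0 at both stages, with medians of 0.23 and 0.36, beside the 49.4% and 52.3% of all genes. DESeq2 called Fkbp5 at 1 h, and Bag3 and Fkbp5 at 4 h, where it called 4.53% and 3.94% of all genes. The edgeR fit with the nerve score as a covariate called Bag3 at 4 h (2.36, adjusted p = 0.0315), where 0.807% of all genes were called.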

How the data were processed

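The authors deposited raw counts per gene symbol for 9 SMA libraries, whole numbers that were not normalized. The submitters' processing notes name HISAT2 and the labels a standard Illumina protocol, while the study's methods describe microarrays; the counting program, genome build, annotation, strand setting and treatment of shared reads are not given in the sources used here. Groups came from the sample titles, and per the series design each group had 3 rats.

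Counts were tested in R 4.3.3 with edgeR 4.0.16 (filterByExpr, TMM, glmQLFit and glmQLFTest) on all 9 libraries with group as the only term. Benjamini-Hochberg adjustment ran over 15482 genes, and calls needed an adjusted p under 0.05 and a fold change over 1.5. Standard errors are the size of the log2 fold change divided by the square root of F. The script was tested on simulated data. No library was a copy of another (between any pair the chi-square was at least 29.9 times its degrees of freedom). The nerve score is the mean log2 CPM (prior count 2) of 23 genes. Totals limit precision for low genes, and the p-values measure the spread between these rats.

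Members and lists were chosen with earlier results of these data known. Values in every library are given for 20 core members and, in each comparison, for up to 6 higher and 6 lower members with the smallest unadjusted p under 0.05. Fold changes with errors are given where that p was under 0.05. Alternatives were DESeq2 1.42.0, relative log expression (RLE) size factors, library size alone, no filter on low counts, only the groups compared, the nerve score as a covariate, a replicate block, and leaving out each library. Promoters came from RefSeq (GRCr8), which was used for names and sequences only.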

Additional observations from a re-analysis of the deposited data

How the results depend on the processing

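The 39 named log2 fold changes of members and cochaperones all had an unadjusted p under 0.05 in the main fit. None of them was called there. Of 624 alternative values of them, 0 changed sign and 610 stayed uncalled. A stable sign was likely from this choice, so it is not counted as support. Some fits also left out a library outside the comparison, and Hspa5 at 1 h stayed at 1.37 without any one 4 h library. The other 14 values were called, 11 with DESeq2 and 3 with the nerve score as a covariate. DESeq2 called 3 members at 1 h (4.55%, against 4.53% of all genes) and 5 at 4 h (7.58%, against 3.94%), where edgeR called 0. It had 18 higher and 2 lower members at an unadjusted p under 0.05 at 4 h (7.17% and 7.97% of all genes). With library size alone these counts were 5 higher and 4 lower at 4 h (2.41% and 10.6% of all genes). That fit had 1 lower member at 1 h (8.37% of all genes) and 0 higher for 4 h against 1 h (0.446%). With the nerve score added as a covariate 2 members were called at 4 h (0.807% of all genes). At an unadjusted p under 0.05 that fit had 5 higher and 0 lower at 1 h (4.5% and 5.5% of all genes). For 4 h against 1 h it had 0 higher (0.291% of all genes). Fits of only the groups compared had 1 lower member at 1 h (8.72% of all genes) and 1 lower for 4 h against 1 h (1.22%). For these changes of count the cause was not tested.

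Leaving out each library gave 3 to 16 higher and 0 to 2 lower members at 1 h (unadjusted p under 0.05). In these fits 3.38% to 14% of all genes were higher at 1 h and 4.67% to 9.53% lower. At 4 h, 5 to 15 members were higher and 1 to 2 lower, against 3.86% to 5.3% and 5.52% to 7.44% of all genes. For 4 h against 1 h, 0 to 3 were higher and 0 to 9 lower, against 0.207% to 6.54% and 0.47% to 14.1% of all genes. Correlations of same-numbered libraries were mixed, positive for replicate 2 in each comparison (0.282 to 0.623) and for replicate 3 at 4 h against 1 h (0.66) but negative for replicate 1 in each (-0.651 to -0.0211). They were not all above 0.1 in any comparison, and no label pairs the rats, so the numbers were taken as names only. With a replicate block, 14 members were higher at 1 h and 12 at 4 h, against 9.58% and 4.48% of all genes. In that fit 0 members were called, where 0.0452% of all genes were called at each stage. Depth limits what can be said of the lowest members, and 3 libraries a group limit the rest.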
